A study of Homo sapiens with 12 samples.

Results

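Genes of the tripartite motif (TRIM) family were examined in cells labelled as an NK line that carried a CD16 fusion receptor or a control construct. A gene was taken as a member when its symbol begins with TRIM and a digit and holds no hyphen, which gave 65 of the 17589 genes in the expression table. 1 readthrough gene, TRIM39-RPP21, was left out by the hyphen. RNA had been sequenced without stimulation from cells labelled YT, an NK line of human origin that lacks CD16a of its own. There were 4 groups of 3 libraries, 12 in all. All groups had received a lentiviral vector, and eGFP-positive cells had been sorted and expanded. CTRL cells carried eGFP. hnCD16 cells carried a high-affinity CD16a that resists cleavage and keeps its natural cytoplasmic tail. FR1 cells carried the hnCD16 ectodomain fused to the cytoplasmic domains of 2B4, DAP10 and CD3ζ, and FR2 cells the same fusion without 2B4. The receptors were driven by the constitutive EF1A promoter. The cells of a group were a sorted pool, and the labels do not say whether replicates were separate cultures, so p-values measure only the spread between these libraries, which may be technical.

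TRIM proteins share a RING domain, which in most members acts as a ubiquitin ligase, followed by B-box zinc fingers and a coiled coil. The part after the coiled coil differs between members and sets what they bind. The largest class ends in a B30.2 (PRY-SPRY) domain, and others end in NHL repeats, a PHD finger with a bromodomain (the TIF1 class), a COS box or a transmembrane segment. In lymphocytes the family is best known for members that interferon induces and that restrict viruses or control the RNA sensing pathway, such as TRIM5, TRIM22 and TRIM25. Other members act in transcription, in the cytoskeleton and in protein turnover at the endoplasmic reticulum.

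The letters GAAA, any 2 bases and GAAA again, the core of the element through which interferon acts on promoters, were searched on both strands in the 250 bases before the start of each gene, in RefSeq promoters on GRCh38.p14. Of the 65 members, 49 had a promoter entry and 8 of these held the letters (16.3%), as did 839 of 27305 promoters in all (3.07%). TRIM22 had no entry and was not searched. A match is a description of the letters and not a binding site. For TRIM69, TRIM5, TRIM34 and TRIM16 the match lies inside the span of the gene in GENCODE v44, whose start differs from that of RefSeq. The matches are shown because interferon-linked members with and without a change between groups, described below, hold the same letters. Each line gives 30 bases, 5′ to 3′ on the strand of the gene, with the match in capitals, which reads TTTC before and after the free bases where the letters lie on the opposite strand. The capitals in TRIM26 hold overlapping matches.
TRIM69 (chr15:44736456-44736485, plus strand): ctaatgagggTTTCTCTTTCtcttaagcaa
TRIM5 (chr11:5685082-5685111, minus strand): atagtttatcTTTCACTTTCctgccctgag
TRIM34 (chr11:5624901-5624930, plus strand): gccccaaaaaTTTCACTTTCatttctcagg
TRIM14 (chr9:98119229-98119258, minus strand): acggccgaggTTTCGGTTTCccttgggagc
TRIM26 (chr6:30213578-30213607, minus strand): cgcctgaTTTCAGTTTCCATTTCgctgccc
TRIM44 (chr11:35662730-35662759, plus strand): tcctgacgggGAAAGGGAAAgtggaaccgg
TRIM2 (chr4:153151936-153151965, plus strand): aataaatagaGAAAAGGAAAtaagccgaag
TRIM16 (chr17:15683012-15683041, minus strand): acagaggtaaGAAATAGAAAtaaagggtcc

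The libraries held 17714566 to 18729019 counts, and 15109 to 15417 genes had a count. FR1 and FR2 libraries stood apart from CTRL and hnCD16 libraries in genes that mark lymphocyte types. The summed TPM of 8 NK cell markers was 117 to 132 in CTRL and hnCD16 and 2307 to 2464 in FR1 and FR2, and NKG7 and PRF1 carried most of the sum in FR1 and FR2. NKG7 averaged 30.7 TPM in CTRL and 1907 in FR1. CD7 on the same list went the other way, from 49.5 TPM in CTRL and 43.2 in hnCD16 to 1.15 in FR1 and 1.64 in FR2. KLRD1 lay between 2.66 and 3.36 TPM on average in every group, and NCAM1 was below 1 TPM in all 12 libraries. PRF1, the gene of perforin, averaged 0.347 TPM in CTRL and 0.300 in hnCD16, against 293 in FR1 and 379 in FR2. The 6 T cell markers in the table summed to 1528 to 1752 TPM in CTRL and hnCD16 and to 45.5 to 54.6 in FR1 and FR2, and CD3D averaged 1321, 1409, 0.150 and 0.247 TPM in the same order. B cell markers differed in both directions. CD79A averaged 14.6 TPM in CTRL and 0.457 in FR1, CD79B 8.24 and 0.0733, and PAX5 0.0233 and 7.99. Myeloid markers summed to 2.61 to 6.53 TPM in all groups, with CD14 below 1 TPM throughout. The libraries labelled CTRL and hnCD16 thus held T cell markers and little PRF1, which goes against the NK label. Whether all 12 libraries come from the same cell line was not tested. A difference in cells between the 2 pairs of groups cannot be told apart from the fused domains, and this holds for every difference between the pairs given below. In bulk RNA, fewer cells of a type and less RNA per cell cannot be told apart either.

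The TRIM family was expressed widely in all 4 groups. 35 members reached at least 1 TPM (a level per gene length that sums to the same total in each library) in every library, and TRIM genes together took 0.146 to 0.182% of counts. 48 members passed the filter on low counts and were tested (73.8%, against 77.6% of all genes). The other 17 had at most 12 counts in any library, and 7 of these were at 0 in at least 9 libraries. They include TRIM10, TRIM15, TRIM42, TRIM54 and TRIM55, which are known from erythroid cells, epithelium, testis or muscle. TRIM genes summed to 807 to 865 TPM in CTRL and 669 to 703 in hnCD16, against 716 to 740 in FR1 and 728 to 750 in FR2.

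TRIM28, the corepressor that KRAB zinc finger proteins recruit to chromatin, had the highest mean TPM of the family in each group. Its level was 165, 168 and 162 TPM in CTRL, 123, 117 and 114 in hnCD16, 104, 94.0 and 109 in FR1, and 92.7, 92.2 and 86.7 in FR2. In TPM the 4 groups did not overlap, with CTRL at the top and FR2 at the bottom. In CPM the hnCD16 libraries, at 187 to 218, overlapped the FR1 libraries, at 169 to 195, and these overlapped the FR2 libraries, at 154 to 170. The members below TRIM28 changed place between groups. TRIM74, TRIM27 and TRIM65 followed in CTRL, where TRIM44 came next with 38.6 ± 0.220 TPM (SD, n = 3). TRIM22 was second in FR1, with 94.2 ± 2.17 TPM, and in FR2, with 88.9 ± 3.26 TPM (SD, n = 3). TRIM37, a ligase mutated in mulibrey nanism, stayed among the highest at 36.9 ± 2.25 TPM in CTRL and 46.1 ± 1.63 TPM in FR1 (SD, n = 3). TRIM74 is uncertain, since its sequence is nearly the same as that of TRIM73 and reads may be split between them.

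**Figure D1:**
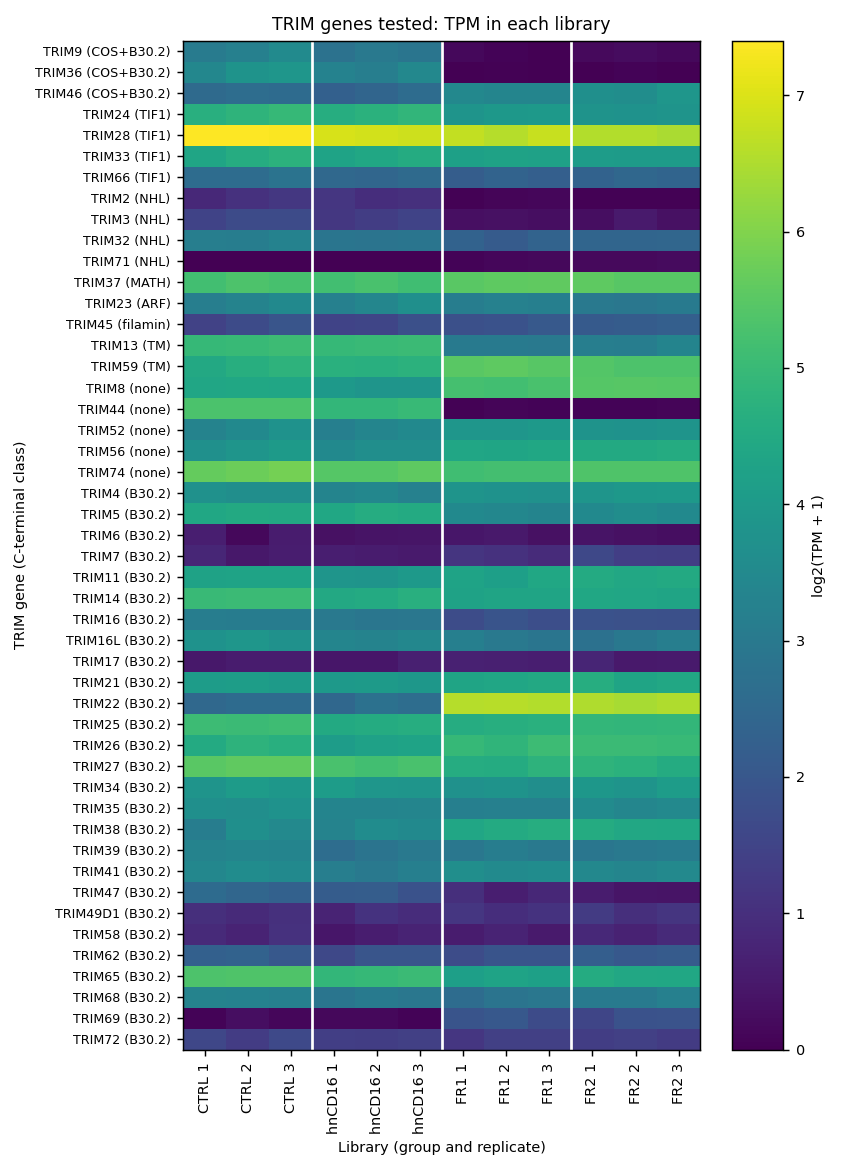
TPM of the 48 tested TRIM genes (rows, with the C-terminal class in brackets) in each of the 12 libraries (columns), as log2(TPM + 1) in colour. TRIM22 turns from dark in CTRL and hnCD16 to bright in FR1 and FR2, TRIM44, TRIM36 and TRIM9 turn the other way, and TRIM28 is the brightest row in CTRL and hnCD16, with TRIM22 next to it in FR1 and FR2.

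The comparison of FR1 with CTRL asks what the whole fusion receptor adds to transduction with eGFP. FR2 with hnCD16 asks what differs when the fused domains replace the natural cytoplasmic tail of CD16a. These comparisons share no library. A gene was called when its absolute log2 fold change was at least 1 and its adjusted p at most 0.05 (edgeR's quasi-likelihood test with Benjamini-Hochberg adjustment over the 13657 genes tested). In FR1 against CTRL, 15 of the 48 members were called (31.2%), beside 38.0% of all genes tested. 7 members were higher, beside 18.3% of all genes, and 8 were lower, beside 19.8%. In FR2 against hnCD16, 16 members were called (33.3%, beside 39.5% of all genes), 8 of them higher (19.6% of all genes) and 8 lower (19.8%). The shares of the family were below those of all genes, a difference that was not tested. The median log2 fold change of the family was -0.15 in FR1 against CTRL (all genes -0.03) and 0.23 in FR2 against hnCD16 (all genes -0.03). In FR1 against CTRL the split of 7 higher and 8 lower depended on the scaling. With library size alone it was 3 higher and 11 lower, the median of all genes being -0.22 instead of -0.03, and TRIM8, TRIM38, TRIM46 and TRIM59 fell just under the fold threshold at 0.89, 0.93, 0.97 and 0.93. With limma the split was 3 and 11 on log2(TPM + 0.1) and 3 and 9 on log2(TPM + 1), and in FR2 against hnCD16 it was 4 and 7 on log2(TPM + 1).

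14 members were called in the same direction in both of these comparisons (29.2%, beside 32.7% of all genes). The 6 that rose were TRIM8, TRIM22, TRIM38, TRIM46, TRIM69 and TRIM71 (15.8% of all genes rose in both), and the 8 that fell were TRIM2, TRIM3, TRIM9, TRIM13, TRIM16, TRIM36, TRIM44 and TRIM47 (16.9%). FR2 against CTRL and FR1 against hnCD16 also share no library with each other. In them 15 members each were called, beside 38.2% and 38.3% of all genes. FR2 against CTRL had 7 higher (18.7% of all genes) and 8 lower (19.6%), and FR1 against hnCD16 had 6 higher (18.7%) and 9 lower (19.6%). The same 8 members fell in both. Without the fold threshold 39 members passed the adjusted p in FR1 against CTRL (79.9% of all genes), 37 in FR2 against CTRL (80.2%), 37 in FR1 against hnCD16 (79.1%) and 41 in FR2 against hnCD16 (80.1%). In CPM, counts scaled to the size of the library, 15 members had all 6 FR1 and FR2 libraries above the other 6, beside 31.4% of all genes, 16 had all of them below, beside 33.0%, and 17 overlapped.

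**Figure D2:**
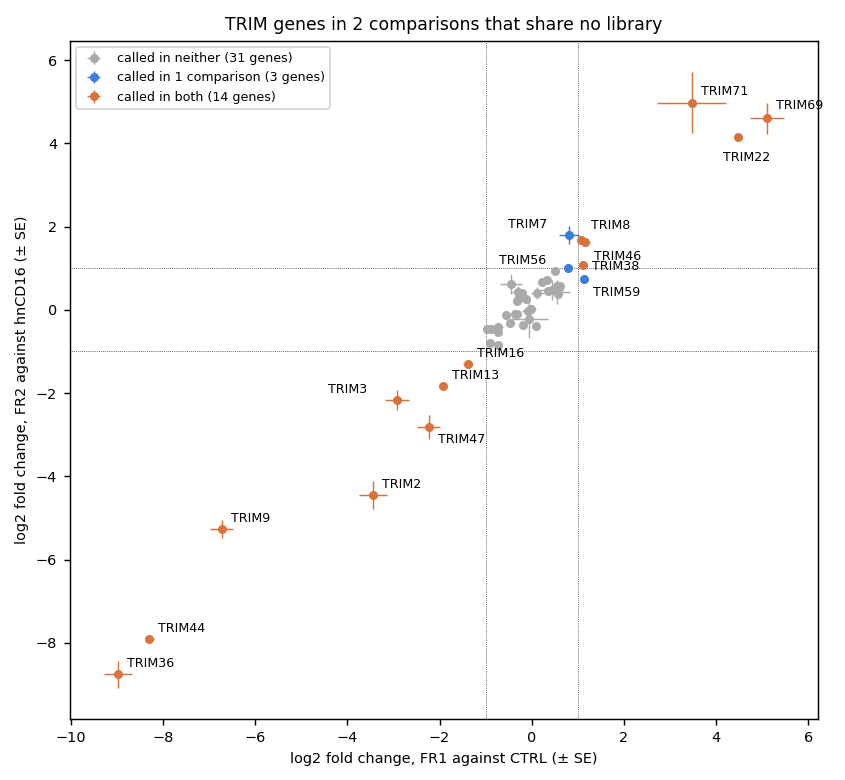
Log2 fold change of each of the 48 tested TRIM genes in FR1 against CTRL (horizontal) and in FR2 against hnCD16 (vertical), with bars of 1 SE from edgeR and dotted lines at the fold threshold. The 14 orange genes were called in both, from TRIM36 at the lower left to TRIM69 at the upper right, 3 blue genes in 1 comparison, and the 31 grey genes lie around 0.

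Among members linked to interferon, TRIM22 showed the largest gain in level. TRIM22 is an interferon-induced B30.2 ligase that restricts HIV transcription and influenza virus, and it lies at chr11:5689610-5737089 on the plus strand (GRCh38). Its read counts were 140, 146 and 141 in CTRL, 140, 173 and 154 in hnCD16, 2775, 2826 and 2682 in FR1, and 2670, 2558 and 2666 in FR2. Every FR1 and FR2 library was far above every CTRL and hnCD16 library. The log2 fold change was 4.47 ± 0.0679 (SE) in FR1 against CTRL (adjusted p = 1.80e-19, edgeR) and 4.15 ± 0.0670 in FR2 against hnCD16 (adjusted p = 3.70e-19). The values against the other reference were 4.38 in FR2 against CTRL and 4.24 in FR1 against hnCD16. FR1 and FR2 differed by 0.10 ± 0.0513 on the log2 scale (adjusted p = 0.167). In TPM the level was 4.94 ± 0.200 in CTRL and 5.22 ± 0.623 in hnCD16 (SD, n = 3).

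TRIM69, a B30.2 member that assembles on microtubules and acts against vesicular stomatitis virus, was close to absent in the control groups. It lies at chr15:44728988-44767829 in GENCODE v44 and carries the promoter match shown above, before a RefSeq start inside this span. Its counts were 1, 2 and 1 in CTRL, 2, 2 and 1 in hnCD16, 43, 51 and 38 in FR1, and 34, 44 and 46 in FR2. Across the whole table, 1.54% of genes were at 1 CPM or more in all 6 FR1 and FR2 libraries and at 3 counts or fewer in the other 6, and TRIM69 was the family member among them. The ratio of counts, scaled by library, was 37.8 in FR1 over CTRL (95% counting interval 14.4 to 141) and 26.1 in FR2 over hnCD16 (10.9 to 81.7). The interval covers counting error only. edgeR gave adjusted p = 6.58e-10 and 2.02e-09 for these comparisons. TRIM69 passed the filter on low counts through the FR1 and FR2 libraries, so these p-values are no support for the rise. Even in FR1 the level was low, at 2.71 TPM on average.

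TRIM38, which limits signalling downstream of Toll-like receptors and of interferon, rose by about 1 log2 unit. It had 402, 456 and 419 counts in CTRL, 429, 440 and 454 in hnCD16, 779, 808 and 839 in FR1, and 919, 895 and 857 in FR2. The pairs of groups did not overlap. Its log2 fold change was 1.12 ± 0.0562 (SE) in FR1 against CTRL (adjusted p = 3.03e-12, edgeR) and 1.08 ± 0.0556 in FR2 against hnCD16 (adjusted p = 3.89e-12), 1.23 in FR2 against CTRL, and 0.97 in FR1 against hnCD16, under the fold threshold. TRIM56, a ligase that acts on the STING and TLR3 pathways, sat at the same border. It had 1340, 1450 and 1626 counts in CTRL, 1212, 1318 and 1284 in hnCD16, 2215, 2146 and 2242 in FR1, and 2392, 2440 and 2483 in FR2. It was called in FR2 against hnCD16 with 1.01 ± 0.0585 (adjusted p = 2.21e-11), and the values in the other comparisons between the pairs were 0.78, 0.90 and 0.89. Without hnCD16 replicate 1 the value of TRIM56 in FR2 against hnCD16 was 0.98 and without FR2 replicate 3 it was 0.99, both under the threshold.

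Most of the other interferon-linked members did not pass the fold threshold. Of the 11 on the list, all tested, 3 rose and 0 fell in FR1 against CTRL by edgeR with the fold threshold (18.3% and 19.8% of all genes), with a median log2 fold change of 0.51 (all genes -0.03), and 4 rose and 0 fell in FR2 against hnCD16 (19.6% and 19.8%), with a median of 0.57 (all genes -0.03). DESeq2 gave the same counts. At an unadjusted p under 0.05, whatever the fold, 6 members were higher and 3 lower in FR1 against CTRL. In FR2 against hnCD16 7 were higher and 2 lower. Of all genes, 79.9% and 80.1% passed even the adjusted p without a fold threshold. FR2 against CTRL had 3 that rose (18.7% of all genes) and FR1 against hnCD16 had 2 (18.7%), and in the latter 1 fell (19.6%). That gene was TRIM5, the restriction factor that binds retroviral capsids. Its counts were 566, 591 and 556 in CTRL, 601, 612 and 576 in hnCD16, 276, 271 and 250 in FR1, and 317, 329 and 329 in FR2. The pairs of groups did not overlap, with the FR1 and FR2 libraries below. The log2 fold change was -1.07 ± 0.0649 in FR1 against hnCD16 (adjusted p = 4.72e-11, edgeR), and -0.91, -0.80 and -0.64 in FR1 against CTRL, FR2 against hnCD16 and FR2 against CTRL.

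TRIM5 and TRIM22 are neighbours on chromosome 11, in a cluster with TRIM6 and TRIM34, and while TRIM22 rose, TRIM5 had negative values. TRIM34, a relative of TRIM5 that also binds capsids, had 281, 298 and 250 counts in CTRL and 240, 247 and 232 in FR1. Its log2 fold change was -0.01 (adjusted p = 0.926, edgeR) in FR1 against CTRL and 0.03 (adjusted p = 0.744) in FR2 against hnCD16. TRIM6, which makes the ubiquitin chains that activate the kinase IKKε, had 4 to 17 counts in a CTRL library and 6 to 12 in FR1 and FR2 libraries, and its values were -0.06 (adjusted p = 0.899) and -0.21 (adjusted p = 0.683). The annotated span of TRIM5, chr11:5663195-5938619 on the minus strand, contains that of TRIM22 on the plus strand, with 0 TRIM22 exons shared with TRIM5 in the annotation. The use of strand in counting is not given in the sources used here, so reads of introns could not be told apart by gene. TRIM6 and TRIM34 also share a readthrough transcript, so their counts are uncertain.

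TRIM21, the cytosolic antibody receptor, and TRIM26, which acts on IRF3, had positive values under the fold threshold. TRIM21 gave 0.54 in FR1 against CTRL (adjusted p = 8.05e-06, edgeR) and 0.57 in FR2 against hnCD16 (adjusted p = 4.51e-06). TRIM26 gave 0.51 (adjusted p = 9.51e-07) and 0.92 (adjusted p = 3.64e-10). TRIM14, a mitochondrial adaptor of RNA sensing, gave -0.55 and -0.13. Exons of TRIM14 overlap those of NANS on the opposite strand, which averaged 48.8, 53.1, 45.3 and 49.2 CPM in CTRL, hnCD16, FR1 and FR2. TRIM25, the ligase of the RNA sensor RIG-I, gave values of opposite sign, at -0.21 (adjusted p = 0.000503, edgeR) in FR1 against CTRL and 0.41 (adjusted p = 2.91e-07) in FR2 against hnCD16. Its mean level was 32.5 TPM in CTRL and 22.5 in hnCD16, against 24.1 in FR1 and 28.7 in FR2. The 2 reference groups thus lay further apart than FR1 and FR2 did. Exons of TRIM25 overlap those of DGKE on the opposite strand and of C17orf67 on the same strand. DGKE averaged 27.7, 27.5, 46.6 and 48.5 CPM in CTRL, hnCD16, FR1 and FR2, and C17orf67 4.45 CPM or less. Without strand, reads of TRIM14 and TRIM25 in the overlaps cannot be told apart. The promoter match shown above was held by 5 interferon-linked members. Of these TRIM69 was higher in all 4 comparisons between the pairs of groups, and TRIM5 was lower in 1. TRIM14, TRIM26 and TRIM34 were called in none. The match was also held by TRIM44, TRIM2 and TRIM16, which are not on the interferon list. They were lower in all 4 comparisons, beside 19.6% to 19.8% of all genes in each. TRIM22 had no promoter entry and was not searched.

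Genes outside the family that act with TRIM proteins moved in both directions. Of the 30 such genes reported here, 1 rose and 3 fell in FR1 against CTRL (18.3% and 19.8% of all genes), and 3 rose and 2 fell in FR2 against hnCD16 (19.6% and 19.8%). IRF9, a transcription factor of the interferon response, rose in both and averaged 5.29 TPM in CTRL and 4.75 in hnCD16, against 16.7 in FR1 and 18.3 in FR2. STAT2 and IRF7 passed in FR2 against hnCD16 alone of these comparisons, a contrast between comparisons that was not tested. DDX58, the RIG-I gene that TRIM25 acts on, was lower in both, with a mean of 6.10 TPM in CTRL and 7.64 in hnCD16, against 2.24 in FR1 and 2.71 in FR2. The other genes that fell were CMYA5, a muscle relative of the family below 0.1 TPM on average in each group, and, in FR1 against CTRL, RNF135, another ligase of RIG-I. Of the 7 ubiquitin-conjugating enzymes on the list, edgeR and DESeq2 called 0 in these comparisons (38.0% and 39.5% of all genes by edgeR). An unadjusted p under 0.05 was found for 6 and 7 of them. Without a fold threshold 79.9% and 80.1% of all genes passed the adjusted p.

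3 further members rose in both comparisons, and they belong to different classes. TRIM8, which has no known C-terminal domain and acts in TNF and JAK-STAT signalling, had 555, 554 and 533 counts in CTRL, 443, 387 and 375 in hnCD16, 1020, 970 and 1038 in FR1, and 1211, 1263 and 1187 in FR2. The 4 groups did not overlap, from hnCD16 at the lowest to FR2 at the highest. Its log2 fold change was 1.08 ± 0.0629 (SE) in FR1 against CTRL (adjusted p = 2.69e-11, edgeR) and 1.67 ± 0.0645 in FR2 against hnCD16 (adjusted p = 6.30e-14). TRIM46, a COS box protein that bundles microtubules in the axon, had 132, 134 and 135 counts in CTRL, 105, 116 and 128 in hnCD16, 276, 251 and 256 in FR1, and 324, 320 and 380 in FR2. Its FR1 and FR2 libraries were above all others, with values of 1.16 ± 0.0973 and 1.62 ± 0.0965. TRIM71, an NHL repeat protein of stem cells, was rare, and it is named after its values were seen since it averaged under 1 CPM. It had 0, 0 and 2 counts in CTRL, 0, 1 and 0 in hnCD16, 5, 8 and 10 in FR1, and 12, 14 and 15 in FR2. The scaled ratio was 13.2 in FR1 over CTRL (95% counting interval 3.25 to 115) and 43.1 in FR2 over hnCD16 (7.31 to 1743). It passed the filter on low counts through the FR1 and FR2 libraries, so its place among the rises is no support for them. It was not called in FR1 against CTRL or FR1 against hnCD16 when only the 2 groups were fitted, nor in the comparisons with limma on log2(TPM + 1).

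**Figure D3:**
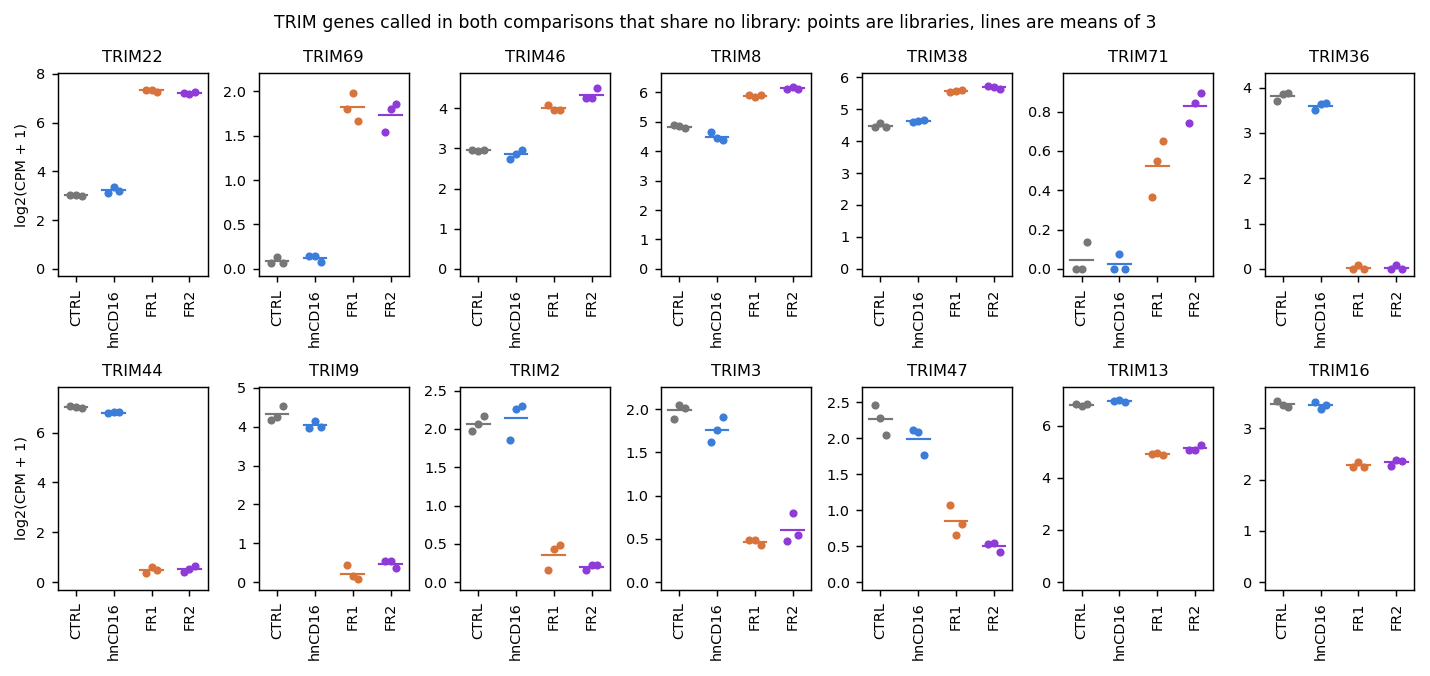
Level of each of the 14 TRIM genes called in both comparisons that share no library, as log2(CPM + 1) on a separate vertical axis for each gene, by group, with a point for each library and a line at the mean of 3. In the 6 genes that rose every FR1 and FR2 point lies above every CTRL and hnCD16 point, and in the 8 that fell every one lies below, with TRIM36 and TRIM44 near 0.

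3 members, TRIM44, TRIM36 and TRIM9, nearly disappeared in FR1 and FR2. They passed the filter on low counts through the CTRL and hnCD16 libraries, so their p-values are no support for the falls. TRIM44, which lacks the RING domain and carries a ubiquitin protease zinc finger, lies at chr11:35662775-35818007. Its counts were 2607, 2578 and 2540 in CTRL, 2012, 2048 and 2087 in hnCD16, 5, 9 and 7 in FR1, and 6, 8 and 10 in FR2. A gene among the 5 highest of the family in CTRL was thus near 0 in each FR1 and FR2 library. The log2 fold change was -8.30 ± 0.103 (SE) in FR1 against CTRL (adjusted p = 1.81e-20, edgeR) and -7.91 ± 0.102 in FR2 against hnCD16 (adjusted p = 2.84e-20). In TPM the mean was 38.6 in CTRL and 29.3 in hnCD16, against 0.0533 in FR1 and 0.0600 in FR2. By transcript, XM_006718254 carried 89.6% of the TPM of the gene in CTRL and 88.5% in hnCD16, and the little that was left in FR1 and FR2 was assigned to NM_017583.

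TRIM36, a COS box ligase linked to microtubules and the cell cycle, lies at chr5:115124762-115180546 on the minus strand. It had 237, 268 and 276 counts in CTRL, 191, 211 and 218 in hnCD16, and 0, 1 and 0 in FR1 as in FR2. Across the whole table, 2.61% of genes were at 1 CPM or more in all 6 CTRL and hnCD16 libraries and at 3 counts or fewer in the other 6, and TRIM36 was the family member among them. The scaled ratio was 682 in CTRL over FR1 (95% counting interval 122 to 26969) and 590 in hnCD16 over FR2 (106 to 23343). TRIM9, a relative of TRIM36 with the same domains that guides axon branching, had 334, 359 and 443 counts in CTRL, 269, 311 and 280 in hnCD16, 6, 2 and 1 in FR1, and 8, 8 and 5 in FR2. All FR1 and FR2 libraries were far below the others. Its log2 fold change was -6.73 ± 0.245 (SE) in FR1 against CTRL (adjusted p = 2.98e-14, edgeR) and -5.26 ± 0.218 in FR2 against hnCD16 (adjusted p = 1.81e-13). Of the COS box class with B30.2, 3 of 4 were tested, and 1 (TRIM46) rose and 2 fell in both comparisons (15.8% and 16.9% of all genes).

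The NHL repeat class, of which TRIM2 and TRIM3 act in neurons and TRIM71 and TRIM32 in stem cells and muscle, also split. Of its 4 members 1 rose and 2 fell in both comparisons (15.8% and 16.9% of all genes). TRIM2 had 57, 64 and 70 counts in CTRL, 48, 70 and 74 in hnCD16, 2, 6 and 7 in FR1, and 2, 3 and 3 in FR2. The ratio of hnCD16 over FR2 was 22.8 (95% counting interval 11.4 to 53.7), and the log2 fold change in FR1 against CTRL was -3.44 ± 0.306 (SE, adjusted p = 9.91e-09, edgeR). TRIM3 had 53, 63 and 61 counts in CTRL, 38, 44 and 52 in hnCD16, 7, 7 and 6 in FR1, and 7, 13 and 8 in FR2. Its groups did not overlap between the pairs, and the values were -2.93 ± 0.257 and -2.17 ± 0.249. TRIM2 and TRIM3 passed the filter on low counts through the CTRL and hnCD16 libraries, so their p-values are no support for the falls. TRIM32 gave -0.88 and -0.47, under the fold threshold.

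The remaining falls were those of TRIM13, TRIM16 and TRIM47. TRIM13, a ligase anchored in the endoplasmic reticulum that takes part in protein degradation there, had 2175, 2146 and 2241 counts in CTRL, 2236, 2297 and 2259 in hnCD16, 507, 515 and 496 in FR1, and 582, 569 and 649 in FR2. FR1 and FR2 libraries kept 496 counts or more, and the pairs did not overlap. Its exons overlap those of KCNRG on the same strand, which averaged 7.83 CPM or less in every group, so counts may be shared between them. The log2 fold change was -1.92 ± 0.0572 (SE) in FR1 against CTRL (adjusted p = 1.73e-15, edgeR) and -1.84 ± 0.0563 in FR2 against hnCD16 (adjusted p = 2.24e-15). TRIM16, which takes part in autophagy of damaged lysosomes, had 194 to 208 counts in CTRL libraries and 65 to 71 in FR1 libraries, with values of -1.38 ± 0.101 and -1.30 ± 0.101. Reads of TRIM16 may be split with its copy TRIM16L, which gave -0.74 and -0.42, so both are uncertain. TRIM47, a B30.2 ligase, had 88, 77 and 63 counts in CTRL, 61, 60 and 45 in hnCD16, 19, 10 and 13 in FR1, and 8, 8 and 6 in FR2. Its values were -2.24 ± 0.241 and -2.82 ± 0.289.

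3 members were called in 1 of the 2 comparisons, and the difference between the comparisons was not tested. They were TRIM56, given above, TRIM59 and TRIM7, the last named after its values were seen. TRIM59, a membrane protein of the same class as TRIM13, had 836, 921 and 978 counts in CTRL, 1011, 975 and 1008 in hnCD16, 1743, 1794 and 1676 in FR1, and 1634, 1569 and 1521 in FR2. Exons of TRIM59 overlap those of SMC4, a condensin gene on the opposite strand, which averaged 168 CPM in CTRL, 150 in hnCD16, 498 in FR1 and 359 CPM in FR2, so without strand the reads cannot be told apart. TRIM59 was above both reference groups in all 6 FR1 and FR2 libraries, with 1.13 ± 0.0550 (SE) in FR1 against CTRL (adjusted p = 2.09e-12, edgeR) and 0.73 ± 0.0548 in FR2 against hnCD16. TRIM7, a ligase that binds glycogenin, had 29, 21 and 21 counts in CTRL, 20, 19 and 16 in hnCD16, 41, 35 and 33 in FR1, and 60, 52 and 71 in FR2. Its value was 0.81 ± 0.220 in FR1 against CTRL and 1.80 ± 0.212 in FR2 against hnCD16 (adjusted p = 4.14e-07).

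The TIF1 class, which recruits silencing factors to chromatin, had 0 of 4 members called in either comparison by edgeR or DESeq2 with the fold threshold. Of all genes, edgeR called 38.0% and 39.5%. The median log2 fold changes of the class were -0.40 and -0.34 (all genes -0.03 in both). All 4 had negative values, and 4 and 3 of them had an unadjusted p under 0.05. Without a fold threshold 79.9% and 80.1% of all genes passed even the adjusted p. TRIM24, a coregulator of nuclear receptors, gave -0.73 ± 0.0568 (SE) in FR1 against CTRL (adjusted p = 1.46e-09, edgeR) and -0.85 ± 0.0572 in FR2 against hnCD16 (adjusted p = 2.07e-10). TRIM28 gave -0.48 and -0.31, TRIM33, which acts on SMAD4, gave -0.18 and -0.36, and TRIM66 gave -0.32 and -0.11, the last with adjusted p = 0.200. For TRIM33 the transcripts are given as a description, with no test. NM_015906 carried 76.3% of its TPM in CTRL and 72.1% in hnCD16, against 51.1% in FR1 and 31.4% in FR2. Of the 27 tested members of the B30.2 class, which leaves out the COS box class with that domain, 3 rose and 2 fell in FR1 against CTRL. In FR2 against hnCD16 4 rose and 2 fell, and the medians were -0.08 and 0.41. The shares over all genes were 18.3% and 19.8% in the first comparison and 19.6% and 19.8% in the second.

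Within each pair of groups few of all genes passed both thresholds, so 0 called members say little about the family. In hnCD16 against CTRL, which asks what the receptor adds without fused domains, 0 of 48 members were called by edgeR, DESeq2 or limma, beside 0.527% of all genes by edgeR. Without the fold threshold 24 members passed the adjusted p of 0.05, beside 43.0% of all genes. Of these 6 were higher (21.6% of all genes) and 18 lower (21.4%), and 29 had an unadjusted p under 0.05. Their log2 fold changes ran from -0.60 to 0.25, and over all 48 members 35 were negative, with a median of -0.19 (all genes -0.01). The TIF1 member TRIM28 was among those lower in hnCD16, with -0.35 ± 0.0664 (SE, adjusted p = 0.000585, edgeR), as were TRIM25 with -0.38 ± 0.0468, TRIM8 with -0.35 ± 0.0682 and TRIM44 with -0.23 ± 0.0488. TRIM22 was 0.23 ± 0.0862 higher in hnCD16 (adjusted p = 0.0438), with 7.02 to 7.30 CPM in CTRL libraries and 7.62 to 9.34 in hnCD16 libraries.

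FR1 against FR2 asks what 2B4 adds. In it 0 of 48 members were called by edgeR, DESeq2 or limma, beside 1.93% of all genes by edgeR, and 16 passed the adjusted p alone (33.3%, beside 36.2% of all genes). Of these 3 were higher in FR1 (17.7% of all genes) and 13 lower (18.5%), from -0.72 to 0.19, and 21 had an unadjusted p under 0.05. TRIM7 was lower in FR1 by edgeR, with -0.72 ± 0.187 (SE, adjusted p = 0.00596), and its FR1 libraries were all below those of FR2. TRIM46 gave -0.36 ± 0.0857 (adjusted p = 0.00316), TRIM8 gave -0.25 ± 0.0591 (adjusted p = 0.00328) and TRIM5 gave -0.26 ± 0.0692 (adjusted p = 0.00629). TRIM9 had the largest difference, -1.17 ± 0.588, without passing the test (adjusted p = 0.139), on 9 counts in FR1 and 21 in FR2. It was -2.14 and called without FR1 replicate 1, and TRIM47 was 1.14 and called without FR1 replicate 2, which leaves 19 and 13 counts in FR1 against 8, 8 and 6 in FR2.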

How the data were processed

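RNA of 12 libraries, 3 for each of 4 groups, was analysed. The authors filtered reads (SOAPnuke), aligned them by HISAT2 2.1.0 to GRCh38.p13 and quantified genes with RSEM 1.3.1 (Bowtie2 2.3.4.3 is also named). The deposited expected counts are estimates of reads per gene without normalization, and the deposited TPM values come from the same step by the authors. Averages and comparison columns were not used. Here expected counts were rounded and tested with edgeR 4.0.16 in R 4.3.3 (TMM, filterByExpr by group, quasi-likelihood test, 1 fit of all 12 libraries, no covariates), with Benjamini-Hochberg adjustment over 13657 genes within each of 6 comparisons. The thresholds (log2 fold change of 1, adjusted p of 0.05) follow the study, which used DESeq2 1.4.5. TMM factors ran from 0.939 in FR1 to 1.11 in CTRL. Each pair of replicates differed by more than counting noise (chi-square per gene 2.06 to 12.3). In simulated FR1 and CTRL counts with 200 genes changed by a log2 fold change of 2, 198 were recovered and 0 others called over 13402 genes. The simulation had the same low spread for every gene and far fewer changed genes, balanced up and down. It thus does not test calls near the fold threshold or the scaling.

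1 gene of the list of other pathway genes is not reported here. Members, classes and lists were chosen with earlier results of these data known. Values are printed for up to 12 rises and 12 falls called in both comparisons that share no library, at a mean of 1 CPM or more, for any member called in hnCD16 against CTRL or FR1 against FR2, for the interferon and TIF1 lists, and for the 5 members of highest mean TPM. A gene was on at 1 CPM or more and near 0 at 3 counts or fewer. Ratios near 0 carry exact 95% counting intervals. Exon overlaps and gene coordinates come from GENCODE v44 (GRCh38), promoters from RefSeq (GRCh38.p14). Alternatives were RLE scaling, library size alone, limma 3.58.1 with TPM logged at pseudocounts of 1 and 0.1, DESeq2 1.42.0, other filters, no fold threshold, fits of only the groups compared, a replicate block and leaving out each library. Figures were drawn with matplotlib 3.10.9.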

Additional observations from a re-analysis of the deposited data

How the results depend on the processing

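The counts of members called in FR1 against CTRL, FR2 against CTRL, FR1 against hnCD16 and FR2 against hnCD16 were 15, 15, 15 and 16 and did not change with DESeq2, RLE or the replicate block. The labels do not say whether replicate numbers pair the samples. Same-numbered libraries of hnCD16 and CTRL correlated, as deviations from the group mean, at 0.338, 0.0196 and 0.404. Their mean was 0.254. The mean for other numbers, -0.127, largely follows from it, since deviations within a group sum to 0, and is no separate comparison. In the other comparisons the mean of same-numbered libraries was -0.0349 to 0.0869. Whether the numbers mark a shared batch was not tested. The block called 15, 15, 15, 16, 0 and 0 members in the 6 comparisons. With at least 10 counts in every library 39 members were tested and 7 were called in each of these 4 comparisons. Fewer of all genes were called as well in each of them, so the loss is not particular to the family. The filter removes TRIM2, TRIM3, TRIM9, TRIM36, TRIM44, TRIM47, TRIM69 and TRIM71, which are low in some libraries, and TRIM56 was no longer called in FR2 against hnCD16. The split of higher and lower became 5 and 2, except 4 and 3 in FR1 against hnCD16. Without the fold threshold the counts were 39, 37, 37 and 41, with 24 in hnCD16 against CTRL and 16 in FR1 against FR2. Without the filter on low counts 20 members were called in FR2 against CTRL and 19 in FR2 against hnCD16. More of all genes were called too, in each of the 4 comparisons. Whether the share of the family moved more than that of all genes was not tested for either filter. The members gained were among those that the filter removes. The counts in FR1 against CTRL and FR1 against hnCD16 stayed at 15. In FR1 against FR2 1 member was called, TRIM49C, from a family of near-identical copies. Leaving out each library in turn gave 15 to 16, 15 to 16, 14 to 16 and 15 to 17 members in the 4 comparisons, 0 to 0 in hnCD16 against CTRL and 0 to 1 in FR1 against FR2. In FR1 against hnCD16 TRIM7 fell under the threshold without FR1 replicate 1 (0.99) or hnCD16 replicate 3 (0.98), and TRIM38 passed it without FR1 replicate 1 (1.01). TRIM59 passed it in FR2 against CTRL without CTRL replicate 3 (1.03). TRIM67, otherwise not tested, was called without FR1 replicate 2 in FR1 against CTRL (1.33) and FR1 against hnCD16 (1.24), and without FR2 replicate 1 in FR2 against CTRL (1.41) and FR2 against hnCD16 (1.34).

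Over the members printed by rule and all settings, 1162 values kept their direction and side of the threshold. Of the others 22 fell under it, 4 passed it and 11 turned in sign, all of TRIM6 and TRIM34. The tally leaves out TRIM7 and TRIM71, called above, and some comparisons, such as TRIM38 in FR1 against hnCD16. With limma on log2(TPM + 1) TRIM7 and TRIM71 fell under the threshold wherever they had been called. In FR2 against hnCD16 their values were 0.87 and 0.20. Values of members that a filter removed are not counted either, so the tally overstates how stable the calls were. TRIM6 in FR1 against CTRL was 0.04 with limma on log2(TPM + 0.1) and ran from -0.50 to 0.25 as each library was left out. TRIM34 in FR1 against CTRL ran from -0.09 to 0.02 in this way. TRIM34 in FR2 against hnCD16 was -0.00 with limma under both pseudocounts and ran from -0.01 to 0.11. For these turned values the cause was not tested. Depth limits TRIM69, TRIM71, TRIM2 and TRIM36, whose lowest groups held 8 counts or fewer.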

Other observations

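The genes beside the called members did not all move with them. Of the 10 nearest tested genes of TRIM44, 4 were lower in both FR1 against CTRL and FR2 against hnCD16 (16.9% of all genes tested), among them CD44 with log2 fold changes of -10.57 and -9.96, RAG1 and RAG2. CAT, PDHX, COMMD9 and TRAF6 averaged 108, 50.5, 49.3 and 42.7 CPM in CTRL and hnCD16 libraries and 61.2, 43.6, 30.1 and 21.3 CPM in FR1 and FR2 libraries. Of the 10 nearest to TRIM13, 6 were lower in both, and of the 10 nearest to TRIM46, 7 were higher in both (15.8% of all genes) and 1 lower. Beside TRIM69, B2M, the light chain of MHC class I, rose with log2 fold changes of 2.99 and 3.01. Beside TRIM8, TRIM47 and TRIM16 at most 1 of 10 was called in both. These neighbours were looked at after values were seen and are given with no test.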
